A study of Mus musculus with 12 samples.

Results

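The 39 Hox genes of the mouse lie in 4 clusters, HoxA to HoxD, and 33 of them had a probe set of their own on the Affymetrix expression arrays described here. They are 9 genes of HoxA, 9 of HoxB, 7 of HoxC and 8 of HoxD. Members were taken by symbol (Hox, a cluster letter from a to d, and a paralogue number), and each was represented by its brightest probe set on average over the 12 arrays, as were all 18193 genes tested. The other Hox genes are not analysed here.

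RNA came from mouse embryonic fibroblasts (MEFs) of strain C57BL/6, mesenchymal cells grown from embryos, in 6 groups of 2 arrays that the series' design text calls biological duplicates. The WT groups were wild-type MEFs. The KO groups were Stat5-null MEFs, which lack STAT5A and STAT5B, the transcription factors that the growth hormone receptor activates through JAK2. The S5 groups were Stat5-null MEFs that carried STAT5A on a retroviral vector. Each genotype was profiled untreated and after 120 minutes of growth hormone. The labels name no vehicle control, no KO cells with an empty vector and no number of embryos, lines or infections behind a genotype. They also do not say which groups shared a cell preparation, so genotype and preparation cannot be told apart, and p-values measure the spread between these arrays.

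Hox genes encode homeodomain transcription factors that give cells their position along the body axis. Within a cluster the genes are numbered by paralogue group, and low numbers are used near the head and high numbers towards the tail. The 9 to 13 paralogues of HoxA and HoxD also pattern the limb from shoulder to digits. Fibroblasts taken from different body sites keep a Hox profile of that site in culture, held by Polycomb and Trithorax chromatin complexes.

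Because the clusters differed as blocks between the genotypes, the start-site windows of 5 members are shown. All come from RefSeq sequence on GRCm38.p6, reach from 250 bases before the start to 50 bases after it, and are written 5′ to 3′ on the gene's strand in lower case, with any TATAAA motif, found on either strand, in capitals. Hoxa11 (chr6:52245761-52246060, minus strand) and Hoxd13 (chr2:74667975-74668274, plus strand) stand for the members that read high in WT and S5 and low in KO. Hoxb4 (chr11:96318017-96318316, plus strand), Hoxc4 (chr15:103034145-103034444, plus strand) and Hoxd9 (chr2:74697513-74697812, plus strand) stand for those that read high in WT and KO and fell in S5.
Hoxa11: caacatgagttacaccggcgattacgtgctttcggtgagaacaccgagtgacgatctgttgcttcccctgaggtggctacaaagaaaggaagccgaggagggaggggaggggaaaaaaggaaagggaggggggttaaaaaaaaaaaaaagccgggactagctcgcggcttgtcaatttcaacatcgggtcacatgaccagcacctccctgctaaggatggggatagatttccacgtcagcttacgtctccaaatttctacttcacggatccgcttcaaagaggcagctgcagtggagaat
Hoxd13: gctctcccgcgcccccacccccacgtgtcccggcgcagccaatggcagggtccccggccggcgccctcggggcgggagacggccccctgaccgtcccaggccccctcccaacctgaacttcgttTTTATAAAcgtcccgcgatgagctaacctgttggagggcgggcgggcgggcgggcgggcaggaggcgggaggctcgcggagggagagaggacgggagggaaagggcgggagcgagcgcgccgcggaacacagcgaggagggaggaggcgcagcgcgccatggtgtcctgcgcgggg
Hoxb4: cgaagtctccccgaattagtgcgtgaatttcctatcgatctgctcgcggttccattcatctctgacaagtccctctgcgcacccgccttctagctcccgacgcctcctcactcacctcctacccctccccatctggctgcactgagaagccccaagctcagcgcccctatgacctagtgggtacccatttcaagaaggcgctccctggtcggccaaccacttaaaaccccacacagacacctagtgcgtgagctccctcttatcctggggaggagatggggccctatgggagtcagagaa
Hoxc4: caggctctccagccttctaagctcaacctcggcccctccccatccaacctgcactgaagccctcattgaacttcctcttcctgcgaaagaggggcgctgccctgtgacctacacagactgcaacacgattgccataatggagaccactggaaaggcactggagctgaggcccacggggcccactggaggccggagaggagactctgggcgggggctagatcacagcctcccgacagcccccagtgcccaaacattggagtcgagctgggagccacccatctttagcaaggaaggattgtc
Hoxd9: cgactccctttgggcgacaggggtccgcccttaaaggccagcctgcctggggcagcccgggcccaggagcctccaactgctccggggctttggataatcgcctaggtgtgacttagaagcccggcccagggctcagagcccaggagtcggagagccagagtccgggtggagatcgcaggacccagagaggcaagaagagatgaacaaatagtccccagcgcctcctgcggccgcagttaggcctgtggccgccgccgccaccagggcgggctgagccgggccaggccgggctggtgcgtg
The table held 21 windows for 19 of the 33 members. Their median GC content was 58 percent and their median number of CpG dinucleotides was 15, against 52.7 percent and 7 over 32851 windows of all genes of the same length of 300 bases. TATAAA was found in the windows of Hoxd13 and Hoxa10 (2 of 21, against 13.6 percent of all windows). The STAT palindrome TTCNNNGAA was found in 0 of 21 windows (8.30 percent of all), and TGATNNAT, a site of PBX and HOX pairs, in 3 windows, those of Hoxd11, Hoxa2 and Hoxb1 (8.85 percent of all). Both strands were searched, and these matches describe letters in the windows, not binding.

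The deposited values are log2 expression values, and 54.3 percent of probe sets had a mean below 4, in a low mode near 2. A gene is called on in a genotype where all 4 of its arrays read 4 or more, low where all 4 read below 4, and mixed otherwise. Array medians lay between 2.86 and 3.02, and the duplicates of a group correlated at r of 0.990 to 0.996 across 10947 genes. The Stat5 genes were read by several probe sets. A Stat5a probe set averaged 11.48 and 12.25 in the WT groups and 2.35 to 2.44 in the KO and S5 groups, and Stat5b averaged 9.01 and 9.36 in WT and 1.94 to 1.98 elsewhere. A different Stat5a probe set averaged 9.88 and 9.09 in the S5 groups but 2.24 and 2.35 in the WT groups and 2.22 to 2.23 in the KO groups, so that neither Stat5a probe set was high in both WT and S5. The 13 fibroblast marker genes measured averaged 13.14 to 13.24 per WT array, 12.88 to 12.94 per KO array and 11.09 to 11.56 per S5 array, with 13, 12 and 11 to 12 of them at 4 or more. The lower S5 mean came from a few of them, chiefly Thy1 (14.16 in WT, 14.25 in KO and 3.59 in S5), Twist2 (8.24 in S5 against 12.82 in WT), Dcn (7.67 against 10.93) and Lum (3.61 against 7.13, and 3.02 in KO), while Col1a1 (14.78 against 14.66) and Vim (14.90 against 14.82) were not lower. Of 14 macrophage and blood genes, 13 read 4 or more on every WT array, 5 or 6 on the KO arrays and 4 on the S5 arrays, with array means of 9.55 to 11.10, 3.91 to 4.44 and 3.48 to 3.80. Levels of other cell types' markers also lay apart. The 5 measured neural and glial genes averaged 7.89 to 8.24 per WT array, 6.13 to 6.29 in KO and 6.88 to 7.55 in S5, with Sox2 at 3.75, 2.33 and 9.16. The endothelial gene Tek averaged 5.80, 3.26 and 9.31, the muscle gene Acta1 8.14, 2.68 and 8.12, and the epithelial gene Krt18 6.62, 7.93 and 2.55, while the other endothelial, muscle and epithelial genes listed read below 4. The 3′ minus 5′ difference of the Gapdh control probe sets, a sign of RNA length, was 1.02 ± 0.15 in WT, 1.04 ± 0.08 in KO and 1.52 ± 0.08 in S5, and that of Actb was 2.88 ± 0.25, 2.96 ± 0.17 and 3.09 ± 0.05 with overlapping ranges (SD, n = 4 arrays each). The part of these differences in the Hox results was not tested.

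Of the 33 Hox genes, 23 were on in WT MEFs, 18 in KO MEFs and 8 in S5 MEFs. In WT cells all 4 clusters contributed, with 6 genes on from HoxA, 6 from HoxB, 6 from HoxC and 5 from HoxD. In KO cells HoxB and HoxC again had 6 genes on each, while HoxA and HoxD had 3 each. In S5 cells 0 of the 9 HoxB genes and 0 of the 7 HoxC genes were on, against 6 of 9 in HoxA and 2 of 8 in HoxD. In bulk RNA, fewer cells of a type and less RNA per cell cannot be told apart, so these are levels of the cultures. The plot of all members by array shows the clusters as blocks.

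**Figure D1:**
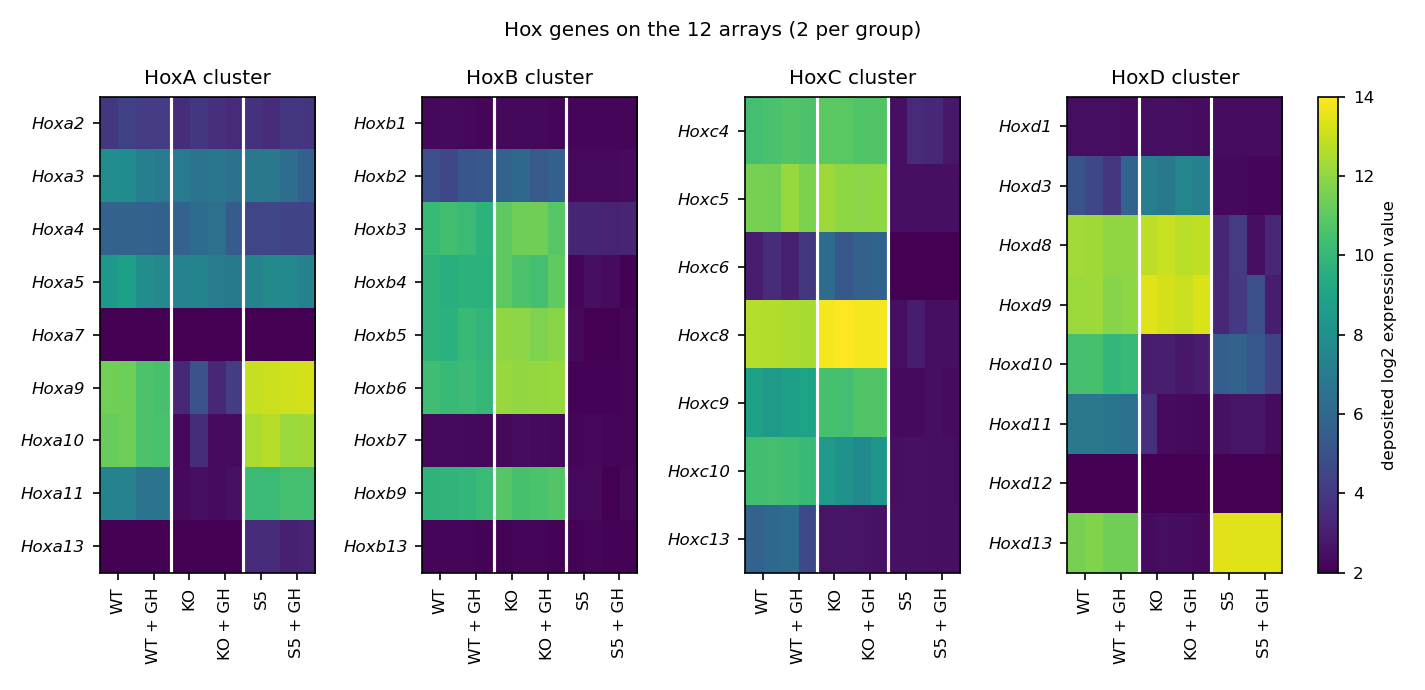
Deposited log2 expression value of each of the 33 Hox genes on the 12 arrays, 1 panel per cluster, with genes from low to high paralogue number downwards, the 2 arrays of a group side by side, and white lines between WT, KO and S5; GH marks growth hormone. HoxB and HoxC are dark on all 4 S5 arrays, and Hoxa9, Hoxa10, Hoxa11 and Hoxd13 are dark in KO and bright in WT and S5.

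The commonest pattern was on in WT and KO and low in S5, seen in 11 members (33.3 percent, against 1.1 percent of all genes tested): Hoxb2, Hoxb3, Hoxb4, Hoxb5, Hoxb6, Hoxb9, Hoxc4, Hoxc5, Hoxc8, Hoxc9 and Hoxc10. Hoxd8 and Hoxd9 were on in WT and KO and mixed in S5. The reverse kind, on in WT and S5 and low in KO, held 4 members: Hoxa10, Hoxa11, Hoxd10 and Hoxd13 (12.1 percent, against 0.451 percent of all genes), and Hoxa9 differed from them only in a mixed state in KO. Hoxc13 and Hoxd11 were on in WT alone (0.995 percent of all genes), and Hoxc6 and Hoxd3 were on in KO alone (Hoxd3 was mixed in WT). By their chosen probe sets, Hoxa3, Hoxa4 and Hoxa5 were on in all 3 genotypes (54.5 percent of all genes), which their further probe sets did not show. All 4 arrays of each genotype read low for 7 members, Hoxa7, Hoxa13, Hoxb1, Hoxb7, Hoxb13, Hoxd1 and Hoxd12 (34.9 percent of all genes), and Hoxa2 lay at the bound with a range of 3.42 to 4.32 over the 12 arrays. Each of the 8 genes on in S5 was also on in WT, which is 34.8 percent of the 23 WT genes. In both S5 and KO 3 genes were on, which is 37.5 percent of the S5 genes and 16.7 percent of the KO genes. In both KO and WT 16 genes were on.

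The KO against WT comparison asks how the Hox profile of Stat5-null MEFs stood to that of wild-type MEFs. Genes of the posterior end (Hoxa9 to Hoxa11, Hoxc10, Hoxc13, and Hoxd10 to Hoxd13 without Hoxd12) were lower in KO, up to at least 182.5-fold for Hoxd13, and the HoxB genes that were on, with Hoxc6, Hoxc8, Hoxc9, Hoxd3, Hoxd8 and Hoxd9, were higher by 1.61-fold to 4.93-fold. With the hormone states averaged (4 arrays against 4), 23 of the 33 genes were called, 12 higher and 11 lower, at an adjusted p below 0.05 in limma's moderated test (Benjamini-Hochberg over all genes), and 38.2 percent of all genes were called, 21 percent higher and 17.2 percent lower. Of the 33, 18 were called with a difference of at least 1 on the log2 scale, against 13 percent of all genes, and 4 (Hoxa9, Hoxa10, Hoxd10 and Hoxd13) differed by at least 6, against 0.412 percent. The median absolute log2 difference was 1.06 over the Hox genes and 0.17 over all genes. By cluster the counts of higher and lower calls were 0 and 6 in HoxA, 6 and 0 in HoxB, 3 and 2 in HoxC, and 3 and 3 in HoxD.

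Hoxd13, which patterns the digits and the genital tubercle, showed the smallest adjusted p of this comparison among the members. With the untreated pair before the treated pair, as in every list of values that follows, Hoxd13 read 11.55, 11.72, 11.40 and 11.38 on the WT arrays, 2.36, 2.45, 2.41 and 2.32 on the KO arrays and 13.45, 13.42, 13.40 and 13.42 on the S5 arrays. The 3 genotypes did not overlap, the KO arrays all lay in the low mode, and the S5 arrays were the highest. KO was at least 182.5-fold lower than WT (log2 difference -9.13, SE 0.04, limma adjusted p = 3.76e-11). Such a bound sets each array in the low mode to 4 before the means are taken.

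The posterior genes of HoxA showed the same order of genotypes. Hoxa10, a gene of the thigh and of the uterus, read 11.20, 11.34, 10.66 and 10.54 in WT, 2.26, 3.59, 2.34 and 2.36 in KO and 12.47, 12.70, 12.18 and 12.30 in S5. Hoxa11, a gene of the forearm and lower leg, read 7.37, 7.31, 6.59 and 6.62 in WT, 2.33, 2.49, 2.36 and 2.54 in KO and 10.17, 10.16, 10.46 and 10.41 in S5. Hoxa9, which is also used in blood progenitors, read 11.43, 11.36, 10.64 and 10.53 in WT, 3.37, 5.07, 3.36 and 4.19 in KO and 12.94, 13.03, 13.15 and 13.23 in S5. All KO arrays lay below all WT arrays for these genes, and all S5 arrays above them, while Hoxa9 passed the bound of 4 on 2 of the 4 KO arrays. Against WT, KO was at least 122-fold lower for Hoxa10 (adjusted p = 5.39e-07), at least 7.84-fold lower for Hoxa11 (adjusted p = 3.84e-09), and 102-fold lower for Hoxa9 with its arrays below 4 set to 4 (adjusted p = 6.2e-06), all by limma. The Hoxa11 bound is small because its WT level lay nearer the bound.

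In HoxD, Hoxd10, which acts in hindlimb motor neurons and in the limb, read 10.48, 10.50, 9.92 and 10.07 in WT, 2.94, 3.0, 2.76 and 2.92 in KO and 5.60, 5.80, 5.31 and 4.35 in S5. Hoxd11, a partner of Hoxa11 in the forearm, read 6.76, 6.74, 6.64 and 6.40 in WT, 3.68, 2.35, 2.30 and 2.25 in KO and 2.55, 2.70, 2.66 and 2.35 in S5. Hoxd10 was at least 75.7-fold lower in KO than in WT (limma adjusted p = 2.27e-07) and Hoxd11 at least 6.21-fold lower (adjusted p = 2.15e-05). Unlike Hoxd10, Hoxd11 was in the low mode in S5 as well. In HoxC, Hoxc10, a hindlimb and lumbar gene, read 10.36, 10.44, 10.33 and 10.14 in WT, 8.50, 8.19, 7.71 and 8.29 in KO and 2.49, 2.56, 2.47 and 2.46 in S5. Hoxc13, a gene of hair and nail, read 5.77, 6.03, 6.26 and 4.64 in WT, 2.62, 2.72, 2.62 and 2.57 in KO and 2.55, 2.55, 2.48 and 2.50 in S5. Hoxc10 thus stayed well above the bound in KO, 4.43-fold below WT (adjusted p = 1.46e-05), and Hoxc13, whose WT arrays spread from 4.64 to 6.26, was at least 3.19-fold lower (adjusted p = 0.000188).

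**Figure D2:**
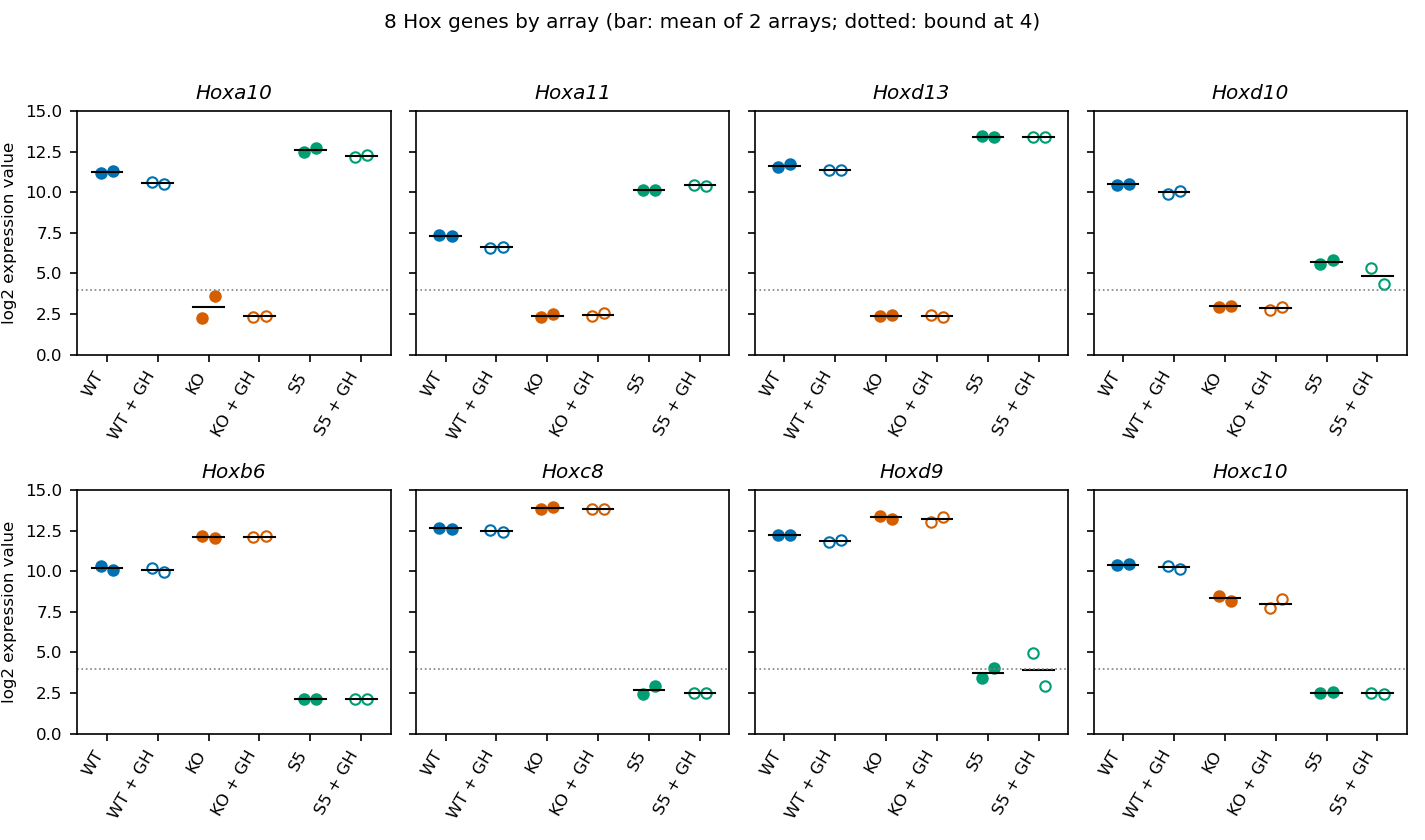
Log2 expression value of 8 Hox genes on every array; filled points are untreated, open points treated with growth hormone (GH), bars are the means of the 2 arrays of a group and the dotted line is the bound of 4. In the top row KO is low and S5 high or intermediate; in the bottom row S5 is at or near the low mode while WT and KO are high.

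Of the 12 higher genes, 6 lay in HoxB, whose members are used in the hindbrain and along the trunk. Hoxb6, a gene of the lateral plate mesoderm, read 10.32, 10.10, 10.22 and 9.98 in WT, 12.16, 12.06, 12.11 and 12.14 in KO and 2.11, 2.11, 2.12 and 2.15 in S5. Hoxb5 read 9.79, 9.68, 10.07 and 9.88 in WT, 12.02, 11.91, 11.67 and 11.87 in KO and 2.26, 1.59, 1.57 and 2.20 in S5. Hoxb4, known for its role in blood stem cells, read 9.81, 9.57, 9.72 and 9.67 in WT, 11.03, 10.64, 10.41 and 11.07 in KO and 2.16, 2.46, 2.37 and 2.08 in S5. In all of them the KO arrays were the highest, WT followed without overlap, and S5 was in the low mode. Hoxb6 was 3.90-fold higher in KO than in WT (log2 difference 1.96, SE 0.07, limma adjusted p = 8.69e-07), Hoxb5 4.03-fold (adjusted p = 0.000109) and Hoxb4 2.13-fold (adjusted p = 0.00165).

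Hoxb3, a hindbrain and pharyngeal gene, read 10.16, 10.35, 10.17 and 9.78 in WT, 11.04, 11.36, 11.42 and 10.87 in KO and 3.24, 3.24, 3.22 and 3.24 in S5. Hoxb2, which acts in the hindbrain, read 4.92, 4.59, 5.22 and 5.28 in WT, 5.82, 5.99, 5.37 and 5.68 in KO and 2.28, 2.32, 2.31 and 2.33 in S5. Hoxb9, a thoracic gene, read 9.82, 9.84, 9.94 and 10.17 in WT, 10.85, 10.52, 10.62 and 10.79 in KO and 2.28, 2.31, 2.03 and 2.26 in S5. The order was again KO, WT, S5 with no overlap, and the gain over WT was 2.09-fold for Hoxb3 (limma adjusted p = 0.000858), 1.64-fold for Hoxb2 (adjusted p = 0.000718, and 0.188 with a difference of 0.27 in the treated arrays alone) and 1.69-fold for Hoxb9 (adjusted p = 0.000566). The remaining HoxB genes, Hoxb1, Hoxb7 and Hoxb13, read between 2.10 and 2.38 on every array.

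In HoxC, Hoxc8, a thoracic and brachial gene, read 12.65, 12.63, 12.54 and 12.41 in WT, 13.83, 13.97, 13.85 and 13.81 in KO and 2.46, 2.92, 2.52 and 2.49 in S5. Hoxc9, its neighbour, read 8.86, 8.48, 8.76 and 8.96 in WT, 10.50, 10.39, 10.73 and 10.73 in KO and 2.29, 2.30, 2.51 and 2.33 in S5. Hoxc6, a thoracic gene, read 2.94, 3.53, 3.07 and 3.96 in WT, 6.25, 5.25, 5.68 and 5.81 in KO and 1.96, 1.95, 1.96 and 1.93 in S5. All 3 were higher in KO than in WT without overlap, Hoxc8 by 2.48-fold (limma adjusted p = 3.62e-05), Hoxc9 by 3.54-fold (adjusted p = 5.71e-06) and Hoxc6 by at least 3.35-fold from a WT level in the low mode (adjusted p = 0.000369). The genes at the 3′ end of the cluster did not pass the test between KO and WT. Hoxc4 read 10.42, 10.56, 10.72 and 10.63 in WT, 10.96, 10.95, 10.76 and 10.74 in KO and 2.49, 3.46, 3.34 and 2.75 in S5 (KO minus WT 0.27, SE 0.22, adjusted p = 0.444). All its KO arrays lay above all its WT arrays, and the SE also takes in the scatter of its S5 arrays. Hoxc5 read 11.56, 11.47, 12.13 and 11.62 in WT, 12.22, 11.96, 11.92 and 11.95 in KO and 2.48, 2.49, 2.46 and 2.47 in S5 (KO minus WT 0.32, SE 0.11, adjusted p = 0.0563). Both genes were high in WT and KO and low on every S5 array.

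HoxD turned within the cluster, with Hoxd3, Hoxd8 and Hoxd9 higher in KO and Hoxd10 onwards lower. Hoxd3, a gene of the first neck vertebrae, read 5.07, 4.54, 3.92 and 5.84 in WT, 7.13, 6.81, 7.44 and 7.29 in KO and 2.25, 2.28, 2.21 and 2.23 in S5. Hoxd8 read 12.35, 12.31, 12.03 and 12.01 in WT, 12.83, 12.97, 12.76 and 12.87 in KO and 3.28, 4.10, 2.48 and 3.34 in S5. Hoxd9, which helps to form the upper limb and the lumbar spine, read 12.21, 12.22, 11.80 and 11.95 in WT, 13.41, 13.24, 13.04 and 13.34 in KO and 3.40, 4.0, 4.93 and 2.94 in S5. All KO arrays lay above all WT arrays for these genes, and the S5 arrays scattered about the bound for Hoxd8 and Hoxd9. KO exceeded WT by 4.93-fold for Hoxd3, with an array below 4 set to 4 (limma adjusted p = 0.00207), by 1.61-fold for Hoxd8 (adjusted p = 0.0466) and by 2.32-fold for Hoxd9 (adjusted p = 0.0462). The Hoxd8 and Hoxd9 calls were kept when only the WT and KO groups were fitted, without the scattered S5 arrays. Both were lost in the untreated arrays alone (limma adjusted p = 0.264 and 0.215) and in the treated arrays alone (0.108 and 0.132). The Hoxd9 call was lost with the replicate number as a block (adjusted p = 0.0652) and without any WT, KO or untreated S5 array in turn (0.0623 to 0.121). The Hoxd8 call was lost without any WT or KO array in turn (adjusted p of 0.0868 to 0.118).

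At the other end of HoxA the changes were small. Hoxa3, which forms the thymus and parathyroids, read 7.88, 7.84, 7.19 and 6.98 in WT, 6.95, 6.56, 6.69 and 6.53 in KO and 6.74, 6.82, 6.34 and 5.72 in S5. Hoxa5, a gene of lung mesenchyme, read 8.41, 8.78, 7.87 and 7.63 in WT, 7.32, 7.43, 6.89 and 6.83 in KO and 7.34, 7.64, 7.72 and 7.27 in S5. Hoxa4 read 5.81, 5.80, 5.79 and 5.74 in WT, 5.75, 6.26, 6.43 and 5.51 in KO and 4.52, 4.55, 4.43 and 4.42 in S5. All of these arrays were on, unlike those of the posterior HoxA genes. Hoxa3 was 1.73-fold lower in KO than in WT (limma adjusted p = 0.00381, and 0.144 with a difference of -0.47 in the treated arrays alone) and Hoxa5 2.08-fold lower (adjusted p = 0.00057), and Hoxa4 did not pass the test (KO minus WT 0.20, SE 0.20, adjusted p = 0.555). Hoxa2, a gene of the pharyngeal arches, was called lower with a difference of -0.47 (adjusted p = 0.0177), all of it at the bound. This call was lost with quantile normalization (adjusted p = 0.0891), in the untreated arrays alone (0.165), without untreated WT replicate 2 (0.0523) and without treated KO replicate 2 (0.0603).

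By paralogue number, 3 genes were higher and 2 lower among the 7 members numbered 1 to 3, 6 higher and 1 lower among the 12 numbered 4 to 8, and 3 higher and 8 lower among the 14 numbered 9 to 13. The higher ones of the last class were the number 9 genes Hoxb9, Hoxc9 and Hoxd9. Among the 10 members numbered 10 to 13, a class chosen after the values were seen, 0 were higher and 7 lower, and the other 3 (Hoxa13, Hoxb13 and Hoxd12) were in the low mode on every array. All 4 KO arrays lay above all 4 WT arrays for 13 members and below them for 10, against 17.3 and 14.9 percent of all genes.

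**Figure D3:**
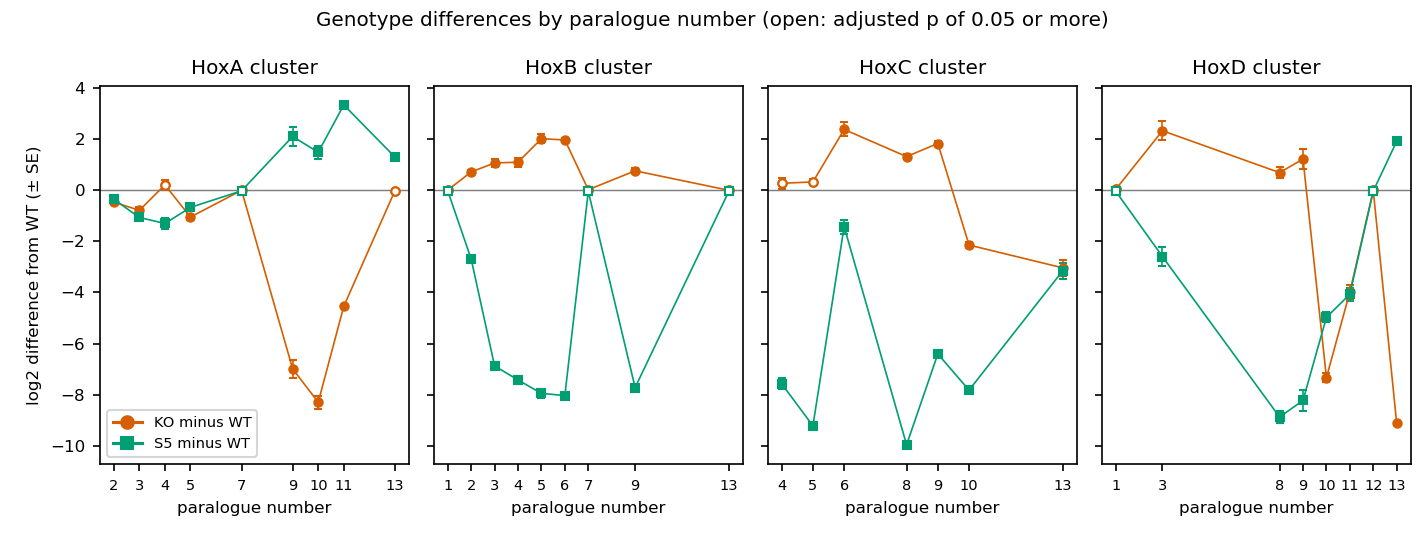
Log2 difference of KO from WT and of S5 from WT (mean of 4 arrays minus mean of 4 arrays, bars are the SE of the limma model) against paralogue number, 1 panel per cluster; open points had an adjusted p of 0.05 or more. KO lies near or above 0 up to paralogue 9 in HoxB, HoxC and HoxD and below it from 10 on where the gene was on in WT; S5 lies above 0 for Hoxa9, Hoxa10, Hoxa11, Hoxa13 and Hoxd13.

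The S5 against KO comparison sets the STAT5A-carrying cells beside the Stat5-null cells from which the labels derive them. No label used here says whether both came from the same MEF preparation, so the vector and the starting cells cannot be told apart in any difference that follows. In S5 the posterior HoxA genes, Hoxd10 and Hoxd13 were higher by up to at least 685-fold, and every HoxB and HoxC gene that was on in KO was lower, with lower bounds of 3.28-fold to 934-fold. Of the 33 genes, 22 were called, 6 higher and 16 lower, and 37.2 percent of all genes were called, 20.3 percent higher and 16.9 percent lower. Differences of at least 1 were called for 22 members, against 13.3 percent of all genes, and 15 members differed by at least 6 on the log2 scale, against 0.852 percent of all genes. The median absolute log2 difference was 4.92 over the Hox genes and 0.16 over all genes. Counts of higher and lower calls were 4 and 1 in HoxA, 0 and 6 in HoxB, 0 and 6 in HoxC, and 2 and 3 in HoxD.

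Among the higher genes, Hoxd13 exceeded KO at least 685-fold (limma adjusted p = 1.28e-11), Hoxa10 at least 341-fold (adjusted p = 1.17e-07) and Hoxa11 at least 78.9-fold (adjusted p = 9.99e-11). Hoxa9 was 438-fold higher, with its KO arrays below 4 set to 4 (adjusted p = 9.67e-07), and Hoxd10 at least 2.41-fold (adjusted p = 4.82e-05). The remaining higher call was Hoxa13, a digit and urogenital gene, which read 2.02, 2.04, 2.0 and 1.98 in WT, 1.97, 2.0, 2.02 and 1.96 in KO and 3.46, 3.54, 3.06 and 3.15 in S5. Its S5 arrays stood apart from the others (log2 difference 1.32, SE 0.03, limma adjusted p = 8.04e-08) but stayed below the bound of 4, so no fold is given.

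Among the lower genes, Hoxc8 was lower in S5 than in KO at least 934-fold (limma adjusted p = 3.91e-10), Hoxb6 at least 278-fold (adjusted p = 9.99e-11), Hoxc5 at least 259-fold (adjusted p = 1.89e-09) and Hoxb5 at least 233-fold (adjusted p = 1.93e-08). The bounds for Hoxb3, Hoxc4, Hoxb4, Hoxb9, Hoxc9 and Hoxc10 ran from 18.0-fold for Hoxc10 to 144-fold for Hoxb3. Those for Hoxb2, Hoxc6 and Hoxd3 were 3.28-fold, 3.35-fold and 8.98-fold, from KO levels nearer the low mode. Hoxd8 and Hoxd9 were 456-fold and 521-fold lower with the S5 arrays below 4 set to 4. Hoxa4 was the only HoxA gene called lower (2.85-fold, limma adjusted p = 0.000663). For Hoxa3 and Hoxa5 the differences were -0.28 (SE 0.15, adjusted p = 0.197) and 0.38 (SE 0.13, adjusted p = 0.0623). All 4 S5 arrays lay above all 4 KO arrays for 6 members and below them for 18, against 17 and 16.7 percent of all genes. None of the 12 members numbered 4 to 8 was called higher and 9 were called lower, and the 14 numbered 9 to 13 held 6 higher and 4 lower calls.

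The S5 against WT comparison shares its arrays with the other 2 genotype comparisons, so the 3 are not independent of each other. S5 exceeded WT for Hoxa9, Hoxa10, Hoxa11, Hoxd13 and the dim Hoxa13, and was lower for 22 members, 6 of them in HoxB and 7 in HoxC. These 27 calls of 33, 5 higher and 22 lower, compare with 44.8 percent of all genes called, 24.7 percent higher and 20.1 percent lower. A difference of at least 1 was called for 25 members (17.7 percent of all genes), and 12 differed by at least 6 (0.978 percent). Hoxa11 was 10.1-fold higher than in WT (log2 difference 3.33, SE 0.05, limma adjusted p = 8.13e-09), Hoxa9 4.28-fold (adjusted p = 0.00194), Hoxd13 3.76-fold (adjusted p = 6.83e-08) and Hoxa10 2.79-fold (adjusted p = 0.00219). In HoxD, Hoxd10 was 31.5-fold lower in S5 (adjusted p = 8.27e-07) and Hoxd11 was lower too, while Hoxd13 was higher. Hoxc8 was at least 376.5-fold lower (adjusted p = 6.77e-10), Hoxc5 at least 207-fold, Hoxc10 at least 79.8-fold and Hoxb6 at least 71.4-fold. All 4 S5 arrays lay above all 4 WT arrays for 5 members and below them for 21, against 20.6 and 19.8 percent of all genes.

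Hoxa3, Hoxa4 and Hoxa5 were the members on in every genotype by their chosen probe sets. They were lower in S5 than in WT by 2.10-fold, 2.47-fold and 1.60-fold (limma adjusted p = 0.000634, 0.00109 and 0.00413). The Hoxa5 arrays of S5 and WT overlapped, and in the treated arrays alone its difference was -0.25 (adjusted p = 0.394). The Hoxa2 call (-0.36, adjusted p = 0.0464) was lost in 14 of the alternatives run, among them the treated arrays alone and leaving out any of the S5 arrays (adjusted p = 0.0542 to 0.391 over the 14). Hoxd11 and Hoxc13 were lower by at least 6.21-fold and 3.19-fold, the same bounds as in KO because both groups lay in the low mode. The median absolute log2 difference from WT was 2.69 over the Hox genes and 0.21 over all genes.

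Further probe sets existed for 11 of the 33 members, 15 in all, and 10 of these reached 4 on some array. No direction differed between those 10 and the probe set chosen for the gene, but several gave other sizes. The further Hoxa10 probe set read low in both WT and KO (KO minus WT -0.01) and high in S5 (S5 minus WT 4.43), so it did not show the loss in KO. That of Hoxa9 gave -1.56 for KO minus WT and 4.89 for S5 minus KO. Those of Hoxb3 (2.10 for KO minus WT, -3.40 for S5 minus KO) and Hoxc5 (-4.88 for S5 minus KO, the brighter of its further probe sets) kept the loss in S5 at a smaller size, and that of Hoxd8 gave -7.71 for S5 minus WT. The pair of further Hoxc6 probe sets gave 3.57 and 0.19 for KO minus WT. That of Hoxa4 gave 1.74 for KO minus WT and -0.19 for S5 minus WT. It was on in KO alone, with means of 4.38 in KO, 2.64 in WT and 2.46 in S5. The further Hoxd13 probe set read below 4 on every array. Such sizes are compressed where a probe set lies near the low mode.

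Few Hox genes were called for growth hormone at 120 minutes, and in WT their share was near that of all genes. In WT MEFs, 2 of the 33 members were called lower and 0 higher, with 2.94 and 3.06 percent of all genes called lower and higher (1092 of 18193 called in either direction). Hoxa11 averaged 7.34 ± 0.04 untreated and 6.60 ± 0.03 treated (SD, n = 2 each; log2 difference -0.73, limma adjusted p = 0.00201). Hoxa5 averaged 8.59 ± 0.26 untreated and 7.75 ± 0.17 treated (SD, n = 2 each; log2 difference -0.85, limma adjusted p = 0.0452). The treated arrays lay below the untreated ones for both genes, and the Hoxa5 call was lost with the replicate block (adjusted p = 0.0762) and without any WT, KO or untreated S5 array in turn (0.0542 to 0.221). Hoxa3 (-0.78, limma adjusted p = 0.0801), Hoxa9 (-0.81, 0.429) and Hoxa10 (-0.67, 0.369) were not called in WT. Their treated arrays also lay below the untreated ones. Hoxa4 changed by -0.04. The median change in WT was -0.67 in HoxA, -0.04 in HoxB, 0.19 in HoxC and -0.24 in HoxD. The SE was 0.07 for Hoxa11 and 0.50 for Hoxa9, whose KO arrays, part of the same estimate of spread, ranged from 3.36 to 5.07. In KO MEFs limma called 0 members, with 2 at an unadjusted p below 0.05 and a smallest adjusted p of 0.376, and it called 0.308 percent of all genes. In S5 MEFs only Hoxa13 was called, from 3.50 ± 0.06 untreated to 3.10 ± 0.06 treated (SD, n = 2 each; log2 difference -0.40, limma adjusted p = 0.00357), all within the low mode, with 4.25 percent of all genes called lower and 3.63 percent higher. Those shares rest on 773 lower and 660 higher calls, which became 274 and 278 without untreated S5 replicate 2, 343 and 339 without untreated S5 replicate 1, 293 and 368 without treated S5 replicate 1, and 260 and 272 when only the S5 groups were fitted.

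The effects of the hormone were also compared between genotypes. For Hoxa11 the change in S5 was 0.27 (treated minus untreated, limma adjusted p = 0.0753) against -0.73 in WT, and the difference between these changes was 1.004 (SE 0.10, adjusted p = 0.00357). The S5 arrays moved up and the WT arrays down. For Hoxa9 the difference between the changes was 1.02, with a larger SE of 0.71 (limma adjusted p = 0.715). Of the 33 members, 2 passed this S5 against WT test, with 2.92 percent of all genes, the other being Hoxa13 in its low mode. Against KO, where Hoxa11 was in the low mode, the WT change differed by -0.78 (adjusted p = 0.0179), and this was the only member called of that test, with 1.27 percent of all genes. The S5 against KO test called 1 member, Hoxa13, with 1.13 percent of all genes.

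**Figure D4:**
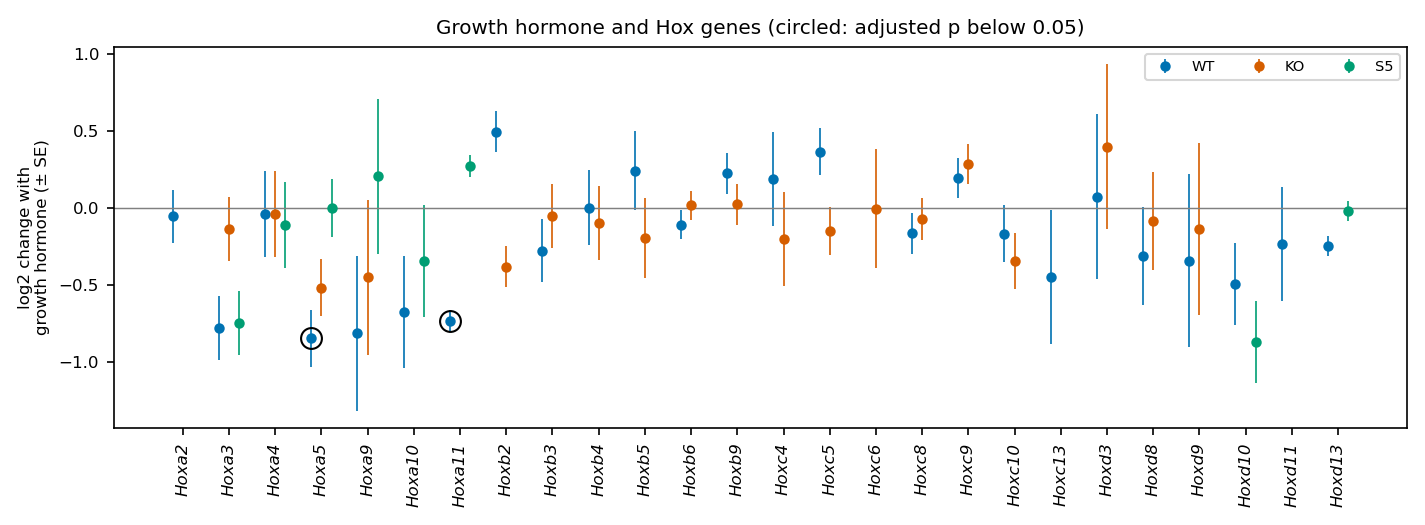
Log2 change with growth hormone (treated minus untreated, bars are the SE of the limma model) for the Hox genes with a group mean of at least 4, drawn for each genotype in which the gene reached 4 with or without hormone. Circles mark adjusted p below 0.05, which only Hoxa5 and Hoxa11 in WT reached among the points drawn.

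HOX proteins bind DNA together with PBX, MEIS and PKNOX cofactors, and 8 of the 9 cofactor genes were measured. In KO against WT, 2 were higher and 1 lower. In S5 against KO, 0 were higher and 5 lower, and in S5 against WT 1 was higher and 4 lower. The shares called were 37.5, 62.5 and 62.5 percent, against 38.2, 37.2 and 44.8 percent of all genes. Among all genes with a group mean of at least 4, as all 8 had, the shares were 58.1, 56.3 and 67.4 percent. None of these shares thus stood well above that of genes of such levels. Differences of at least 1 were called for 2, 4 and 4 of the 8 cofactor genes (25, 50 and 50 percent). Those shares were 20.1, 20.5 and 27.3 percent among all genes with a group mean of at least 4. Meis1 read 8.62, 8.81, 7.88 and 7.83 in WT, 9.57, 9.67, 9.77 and 9.54 in KO and 5.11, 5.43, 5.18 and 5.08 in S5. The order was KO, WT, S5 without overlap, with KO 2.56-fold above WT (limma adjusted p = 1.94e-05) and S5 8.48-fold below WT (adjusted p = 1.77e-07). Pknox2 read 9.44, 9.08, 9.22 and 9.44 in WT, 7.75, 7.40, 7.38 and 7.63 in KO and 3.37, 3.51, 2.57 and 3.53 in S5. It was 3.38-fold lower in KO than in WT (adjusted p = 0.000486) and lower still in S5, at least 39.3-fold below WT (adjusted p = 5.8e-07). Pbx3 and Pknox1 were also lower in S5 than in WT, by 2.36-fold and 2.06-fold.

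Polycomb and Trithorax genes, which keep Hox genes silent or active, were listed with the Hox inputs. Of 22 measured, 13 were higher and 5 lower in KO than in WT, 9 and 1 in S5 against KO, and 14 and 6 in S5 against WT. The shares called were 81.8, 45.5 and 90.9 percent, against 38.2, 37.2 and 44.8 percent of all genes. Among all genes with a group mean of at least 4, as all of these but Cbx7 had, 58.1, 56.3 and 67.4 percent were called. The S5 against KO share was thus not above that of genes of such levels. Differences of at least 1 were called for 1, 0 and 4 of them (4.55, 0 and 18.2 percent, against 13, 13.3 and 17.7 percent of all genes). Ezh2 and Eed, of the repressive complex that methylates histone H3, were 1.89-fold and 1.85-fold lower in KO than in WT (limma adjusted p = 8.57e-06 and 3.02e-05), and Ezh1, the paralogue of Ezh2, was 2.44-fold higher (adjusted p = 0.000121). In S5, Ezh1 was 3.33-fold above WT (adjusted p = 1.7e-05) and Ring1 2.05-fold (adjusted p = 4.49e-05). Of the 9 Cdx and retinoic acid genes, which act upstream of Hox genes in the embryo, 3 were lower in KO than in WT (33.3 percent, against 38.2 percent of all genes called). Among them were Aldh1a2 (at least 1.62-fold, limma adjusted p = 5.98e-05) and Rarb, a retinoic acid receptor (2.51-fold, adjusted p = 0.00897). Cyp26b1, the enzyme that breaks retinoic acid down, was also called (adjusted p = 9.76e-05), through the treated arrays. It read 3.54, 2.90, 7.37 and 8.01 in WT, 3.39, 2.70, 2.72 and 2.75 in KO and 3.51, 3.34, 6.57 and 6.94 in S5, so that the untreated arrays of all 3 genotypes overlapped below 4 and only the treated WT and S5 arrays were on.

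Genes that lie beside the clusters were measured for 14 of the 16 listed. In KO against WT, 5 were higher and 1 lower, in S5 against KO 5 and 3, and in S5 against WT 6 and 4. The shares called were 42.9, 57.1 and 71.4 percent, against 38.2, 37.2 and 44.8 percent of all genes. Among all genes with a group mean of at least 4 they were 58.1, 56.3 and 67.4 percent. Evx1, Evx2 and Ttll6 of the list read below 4 on every array, so these sets are not alike. The counts are not read as a result about the neighbours. Among these calls 1 reached 1 on the log2 scale: Mtx2, next to HoxD, was 2.02-fold lower in S5 than in KO (limma adjusted p = 4.13e-05). Calcoco1, beside HoxC, was 1.72-fold higher in KO than in WT (adjusted p = 1.32e-05), and Skap2, beside HoxA, 1.41-fold (adjusted p = 0.000765).

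Genes of body position outside the clusters were taken from a limb and trunk list and a head list. Of 16 limb and trunk genes, 3 were higher and 5 lower in KO than in WT, 7 and 3 in S5 against KO, and 7 and 2 in S5 against WT. The shares called were 50, 62.5 and 56.2 percent, against 38.2, 37.2 and 44.8 percent of all genes. Among all genes with a group mean of at least 4 they were 58.1, 56.3 and 67.4 percent. Alx4, Dlx6, Pitx1 and Shh of this list read below 4 on every array, so these sets are not alike. Tbx4, a hindlimb transcription factor, read 8.31, 8.62, 8.78 and 8.33 in WT, 2.77, 2.24, 2.27 and 2.32 in KO and 9.62, 9.57, 8.78 and 8.64 in S5. Msx1, a gene of distal limb and facial mesenchyme, read 7.26, 7.46, 6.84 and 7.10 in WT, 2.94, 3.02, 2.52 and 2.44 in KO and 12.11, 11.99, 12.78 and 12.75 in S5. Lmx1b, a gene of the dorsal limb, read 6.23, 5.79, 4.89 and 5.16 in WT, 2.01, 2.0, 2.0 and 1.95 in KO and 9.86, 9.72, 9.62 and 9.70 in S5. These 3 genes were in the low mode in KO and on in WT and S5, as were Hoxa10, Hoxa11 and Hoxd13. KO was lower than WT by at least 22.8-fold for Tbx4 (limma adjusted p = 1.51e-07), 8.96-fold for Msx1 (adjusted p = 2.05e-08) and 2.86-fold for Lmx1b (adjusted p = 4.04e-07). S5 was higher than WT by 37.8-fold for Msx1 (adjusted p = 3.68e-09) and 18.5-fold for Lmx1b (adjusted p = 8.1e-08).

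Tbx5, a forelimb transcription factor, and En1, a gene of ventral limb and trunk skin, went the other way and were chosen after their values were seen. Tbx5 read 4.11, 4.18, 4.10 and 4.11 in WT, 6.88, 5.38, 5.50 and 6.03 in KO and 3.25, 3.30, 3.26 and 3.25 in S5. En1 read 9.0, 8.97, 8.40 and 8.61 in WT, 10.31, 10.94, 11.00 and 9.46 in KO and 4.63, 4.49, 3.25 and 3.89 in S5. Both were highest in KO, 3.54-fold above WT for Tbx5 (limma adjusted p = 0.00211) and 3.21-fold for En1 (adjusted p = 0.00574). Pitx1, the other hindlimb factor on the list, also chosen after its values were seen, read 1.80 to 1.88 on every array.

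Of 12 measured head and neural crest genes, 1 was higher and 4 lower in KO than in WT, 4 and 3 in S5 against KO, and 4 and 5 in S5 against WT. The shares called were 41.7, 58.3 and 75 percent, against 38.2, 37.2 and 44.8 percent of all genes. Among all genes with a group mean of at least 4 they were 58.1, 56.3 and 67.4 percent. Barx1, Dlx1, Otx1, Otx2 and Six2 of this list read below 4 on every array, so these sets are not alike. Pax3, a gene of neural crest and of muscle and dermis precursors, read 3.49, 4.37, 2.54 and 3.01 in WT, 11.48, 12.03, 11.62 and 11.81 in KO and 2.42, 2.43, 2.37 and 2.40 in S5. Only the KO arrays read well above 4, and 1 WT array passed that bound. KO was 200-fold above WT with the WT arrays below 4 set to 4 (limma adjusted p = 2.27e-07), and S5 was at least 213-fold below KO (adjusted p = 6.45e-08). Dlx2, a gene of the facial skeleton, was 9.16-fold higher in S5 than in WT (adjusted p = 6.26e-07), and Foxd1, a gene of kidney and facial mesenchyme, at least 7.87-fold lower (adjusted p = 2.55e-07). The 4 genes lower in KO than in WT included Alx1 (at least 2.535-fold, limma adjusted p = 1.52e-05), Foxd1 (1.89-fold, adjusted p = 0.000876) and Foxc2 (1.35-fold, adjusted p = 0.00321).

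**Figure D5:**
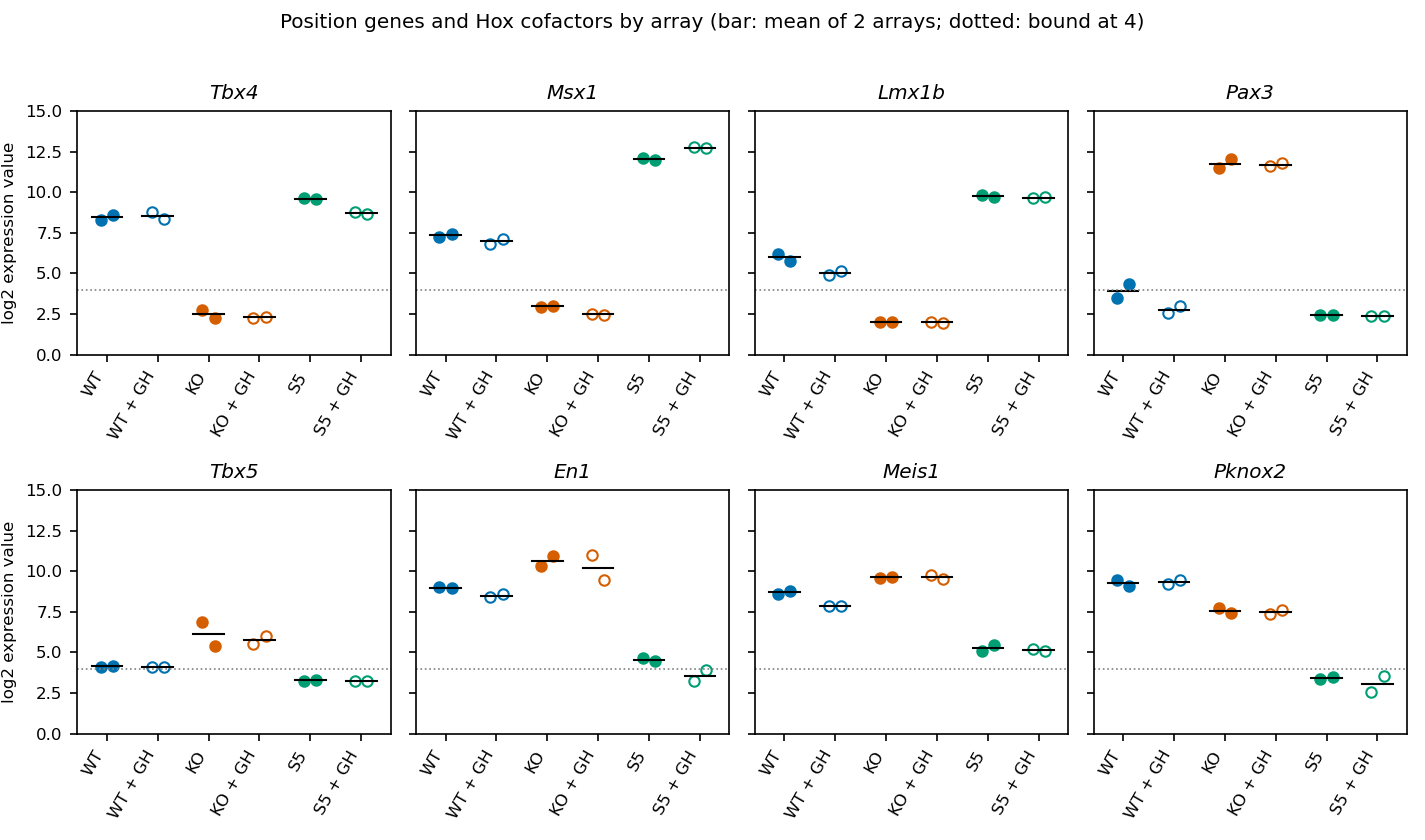
Log2 expression value of 6 position genes and 2 Hox cofactors on every array; filled points are untreated, open points treated with growth hormone (GH), bars are the means of the 2 arrays of a group and the dotted line is the bound of 4. Tbx4, Msx1 and Lmx1b are low in KO, Pax3 is high in KO alone, and Tbx5, En1, Meis1 and Pknox2 are lowest in S5.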

How the data were processed

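RNA of 12 MEF cultures was hybridised to Affymetrix arrays with 45101 probe sets. The authors deposited log2 expression values, and GCOS and RMA are named, without versions or settings, in the submitters' processing notes. No label states the log2 scale in words; the range from 0.99 to 15.95 is that of one. Values pile up in a low mode below 4, where differences are compressed. The bound of 4 and the lists of other genes were chosen with earlier results of these data known, as were the members.

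Probe sets for controls (64), several genes (932) and no gene (9160) were left out. The remaining 34945 covered 18193 genes, named through a RefSeq table of GRCm38.p6, and the brightest probe set on average stood for a gene. Among those left out, 3 probe sets were listed with a Hox gene and others.

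A model of 6 group means was fitted to all genes with limma 3.58.1 in R 4.3.3 (6 residual and 1.2 prior degrees of freedom). The spread of a gene was estimated once over all 6 groups, so scatter in 1 genotype enters the SE of every comparison. P-values are two-sided and adjusted by the Benjamini-Hochberg method over all genes at 0.05, and the procedure was tested on simulated data. Genotypes were compared over both hormone states, and the hormone within genotypes and between them. Every fold is 2 to the power of a log2 difference, with arrays below 4 set to 4; it is written "at least" where all arrays of a side lay below 4 and not given where both sides did. Values on every array are given for members with a called genotype difference of at least 1 and a group mean of at least 4, and for members called for the hormone. For genotype comparisons, genes of each other list were named from the up to 4 with the smallest adjusted p, unless said to be chosen after their values were seen. Not all of those up to 4 were named. Deviations of arrays with the same replicate number correlated at -0.36 to 0.20 between groups, so the numbers were not used as pairs. With 2 arrays a group, their number limits the precision.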

Additional observations from a re-analysis of the deposited data

Results flagged for a closer look

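For Hoxa11 the response to growth hormone differed between S5 and WT MEFs by 1.004 on the log2 scale (S5 minus WT; limma interaction test, adjusted p = 0.00357), with both treated arrays above both untreated arrays in S5 and below them in WT. The WT response of Hoxa11 differed from that of KO by -0.78 (adjusted p = 0.0179), where KO was in the low mode with and without hormone. The call against KO was lost with an intensity trend (adjusted p = 0.439), with only the compared groups fitted (0.102) and without treated WT replicate 1 (0.0565), and the S5 minus WT call was lost with the trend (0.133).

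For Hoxa13 the response in S5 differed from that in KO by -0.41 (limma interaction test, adjusted p = 0.0355) and from that in WT by -0.36 (adjusted p = 0.0324). All 12 arrays of Hoxa13 read below 4, and with these values set to 4 both differences were 0.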

How the results depend on the processing

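The counts of Hox genes called between genotypes (23 for KO against WT, 22 for S5 against KO and 27 for S5 against WT) ranged over 19 to 25, 22 to 25 and 25 to 27 under all alternatives run, and without each array in turn over 20 to 23, 22 to 23 and 26 to 27. Of the 65 genotype differences of at least 1 that were called, 64 stayed called in the same direction under every alternative, the exception being Hoxd9 in KO against WT. No direction was reversed in any of the 79 gene results. The labels do not say that replicate numbers pair the arrays; with the replicate block the genotype counts were 23, 22 and 26.

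The hormone counts were small and moved. In WT (2 called) the count was 0 with an intensity trend, 1 with the replicate block and 1 to 4 without each array in turn. In KO (0 called) it reached 1 without either untreated KO array. In S5 (1 called) it was 3 with the mean of all probe sets, 2 with arrays centred on their medians, 0 in a fit of the groups compared, 2 with the replicate block and 1 to 3 without each array. For WT minus KO (1 called) it was 0 with the trend and 0 in a fit of the groups compared, and up to 2 without each array. For S5 minus KO (1 called) it was 0 with centring, the filter on low genes, the fit of the groups compared and the replicate block, and 0 to 1 without each array. For S5 minus WT (2 called) it was 1 with the filter, the trend and the replicate block, and 1 to 2 without each array. The trend also lost Hoxa11 in WT (adjusted p = 0.0763) and its difference from S5 (adjusted p = 0.133). The cause was not tested. Centring moved the share of higher calls among all genes from 54.5 to 43.8 percent for S5 against KO and from 46.1 to 32.2 percent for the hormone in S5. The number of arrays and the compressed low mode limit all of these values.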

Other observations

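Growth hormone lowered some of the other position genes in WT MEFs. Of 12 head and neural crest genes, 4 were called lower by limma in WT, each by at least 1 on the log2 scale, and 1 in S5, and 2.94 percent of all genes were called lower in WT and 4.25 percent in S5. The genes, chosen after their values were seen, were Alx1 (-1.82, adjusted p = 0.0083), Foxc1 (-1.02, adjusted p = 0.00745), Foxd1 (-1.02, adjusted p = 0.0194) and Dlx2 (-1.004, adjusted p = 0.0145). In S5, Foxc1 was lower by a difference of -0.76 (adjusted p = 0.0194). Among the Hox cofactors, hormone-treated WT arrays were lower for Meis1 (-0.86, adjusted p = 0.00916) and Meis2 (-0.48, adjusted p = 0.0269) and treated S5 arrays were lower for Meis2 (-0.60, adjusted p = 0.00996). Cyp26b1, which breaks down retinoic acid, rose at least 12.9-fold in WT (adjusted p = 0.000393) and at least 6.75-fold in S5 (adjusted p = 0.00187).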
